A study of Mus musculus with 30 samples.

Results

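The genes described here are those that 2,4-BPS, BPSIP and BPS, all sulfone bisphenols, moved the same way in the liver of female ICR mice. The comparison used 12 of the 30 libraries of the series, 9 from females exposed to a sulfone bisphenol (3 per compound) and 3 from female controls. The 3 libraries of females exposed to E2 (oestradiol, the main oestrogen) are shown beside them. Dams drank water with a chemical at 10 ng/mL, meant to give 5 µg per kg of body weight a day, from the start of pregnancy until weaning, about 40 days. All groups, controls included, received 0.001% ethanol as vehicle, and livers were taken from the offspring at 10 weeks of age. Exposure was through 8 dams per group, and the 3 livers of a group were of offspring drawn at random among litters of different dams. Each library is 1 liver, taken weeks after exposure had ended.

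BPS is a pair of phenols joined by a sulfone, and it serves as a replacement for bisphenol A. In 2,4-BPS a hydroxyl group sits at another position of 1 ring, and BPSIP carries an isopropyl ether in place of 1 hydroxyl of BPS. The liver makes cholesterol, stores and releases glucose, secretes most plasma proteins and inactivates hormones. Many of its genes are read at different rates in males and females under the pattern of growth hormone release, and oestrogen acts on it through the receptor encoded by Esr1.

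The female libraries held 33360839 to 37719069 counts, and 13874 of 17990 genes passed the filter on low counts. Levels are in CPM, counts scaled to library size and corrected with TMM factors of 0.928 to 1.09. Differences are log2 fold changes ± SE from edgeR's quasi-likelihood fit of the 15 female libraries, and adjusted p values are Benjamini-Hochberg adjusted over all genes. A change was called at an adjusted p under 0.05. The 3 compounds and E2 were each set against the same 3 control libraries, so they are not independent of each other. The common biological coefficient of variation was 0.0915. Hepatocyte marker genes summed to 111000 to 149000 CPM in the 12 libraries; none of the 11 markers was at 0 in all 12. In a whole liver, fewer cells of a type and less RNA per cell cannot be told apart.

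A gene is called shared below when each of the 3 compounds passed the test against control in the same direction. Taken singly, 2,4-BPS was called higher in 10.9% and lower in 8.42% of the genes tested, BPSIP in 19.4% and 19.2%, BPS in 9.32% and 7.5%, and E2 in 10.4% and 10.6%. There were 333 shared higher genes, 2.4% of the genes tested, and 250 shared lower genes, 1.8%. In 327 of the 333 all 9 exposed livers lay above the 3 controls, and in 245 of the 250 all lay below, against 4.63% and 4.5% of all tested genes; the choice of members favours this. A further 207 genes (1.49%) passed under all 3 compounds but in unlike directions, so 583 of the 790 genes that passed under all 3 moved the same way. Most changes were small: the smallest of the 3 absolute log2 fold changes reached 1 in 23 of the higher and 13 of the lower genes, and its median was 0.33 and 0.36. The mean of the 3 compound effects was called higher in 1829 genes (13.2%) and lower in 1672 genes (12.1%). Just inside the limit for a shared gene were Ahctf1 and Grina, with a largest adjusted p of 0.0499 and 0.0497, and just outside were Gtf2f1 (0.0502) and Magix (0.0506).

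How far a shared direction was also a shared size differed from gene to gene, and that divides the account that follows. The test of the mean effect takes its error from libraries of the same compound. When the 9 exposed libraries were instead treated as 1 group against the 3 controls, so that the spread between compounds entered the error, 203 genes were higher and 180 lower of 13766 tested. Of the shared genes, 192 of 333 higher and 158 of 250 lower ones passed in that fit. It used the same libraries that chose the shared genes, so the choice favours passing, and a pass is no separate support. The 9 livers come from 3 compounds and are not 9 replicates of 1 exposure. Its adjusted p is given below as the 9-against-3 p. BPSIP gave the largest of the 3 changes in 208 of 333 higher and 152 of 250 lower genes.

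Some genes changed to much the same extent under each compound. Onecut1, which encodes the liver transcription factor HNF6, rose from 8.47, 8.34 and 7.41 CPM in controls to between 16.3 and 22 CPM over the 9 exposed livers, with a median of 19.7 CPM. Exposed and control livers did not overlap, and the mean effect was 1.25 ± 0.14 (log2, adjusted p = 7.24e-07). The E2 livers were spread, at 16.9, 8.38 and 15.3 CPM, and 1 of them lay within the range of the controls. No pair of compounds passed for Onecut1, with 95% intervals of -0.67 to -0.02 for 2,4-BPS minus BPS, -0.39 to 0.25 for BPSIP minus BPS and -0.60 to 0.04 for 2,4-BPS minus BPSIP. These intervals allow differences of up to 0.67 (log2) between compounds, so they do not show that the compounds act alike. Bmper, a secreted regulator of bone morphogenetic protein signalling, was at 7.61 to 10 CPM (median 8.56) in exposed livers against 5.4, 3.46 and 2.72 CPM in controls. Its mean effect was 1.16 ± 0.15 (log2), and the pair interval that reached furthest from 0 ran from -0.50 to 0.16 (2,4-BPS minus BPSIP). Hdc, which makes histamine from histidine, rose by 1.68 ± 0.20 (log2), and its E2 effect was 1.33 ± 0.23. The mean of the sulfone bisphenols and E2 differed for Hdc by 0.35 (log2) with an interval of -0.01 to 0.71.

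Of the 12 lower genes chosen for their least change, Fst came first. It encodes follistatin, a secreted protein that binds activin. Controls held 3.77, 3.57 and 3.59 CPM, and the 9 exposed livers held 0.219 to 1.07 CPM with a median of 0.538. The mean effect was -2.73 ± 0.25 (log2), and all 9 exposed livers lay below all controls. E2 livers, at 3.94, 4.86 and 4.09 CPM, lay above every control, and the E2 effect did not pass (0.24 ± 0.29, adjusted p = 0.644). For Fst the sulfone mean minus E2 was -2.97 ± 0.24 (adjusted p = 2.09e-12). No pair of compounds passed for Fst, but at these low levels the intervals were wide, from -1.19 to 0.36 for 2,4-BPS minus BPSIP.

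Serpina7 encodes thyroxine-binding globulin, a carrier of thyroid hormone in plasma. Its level fell from 15.9, 17.5 and 18.4 CPM to 6.03, 6.1 and 5.66 with 2,4-BPS, 3.76, 3.22 and 2.88 with BPSIP, and 5.99, 4.78 and 5.26 with BPS. The E2 livers held 16.9, 16 and 14.4 CPM, overlapping the controls. The mean effect was -1.87 ± 0.10 (log2), and BPSIP lowered the gene further than BPS (difference -0.70, adjusted p over the 3 pairs = 0.000153). Rnf225, a gene of the RING finger family, showed a like pattern at 2.93 to 4.02 CPM (median 3.41) in exposed livers, 8.31, 7.11 and 8.96 CPM in controls and 8.35, 6.42 and 7.91 CPM with E2. No pair of compounds passed for Rnf225, and its intervals reached from -0.63 for 2,4-BPS minus BPSIP to 0.62 for BPSIP minus BPS. The 9-against-3 p was 0.000565 for Fst, 0.000232 for Serpina7 and 0.00026 for Rnf225.

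**Figure D1:**
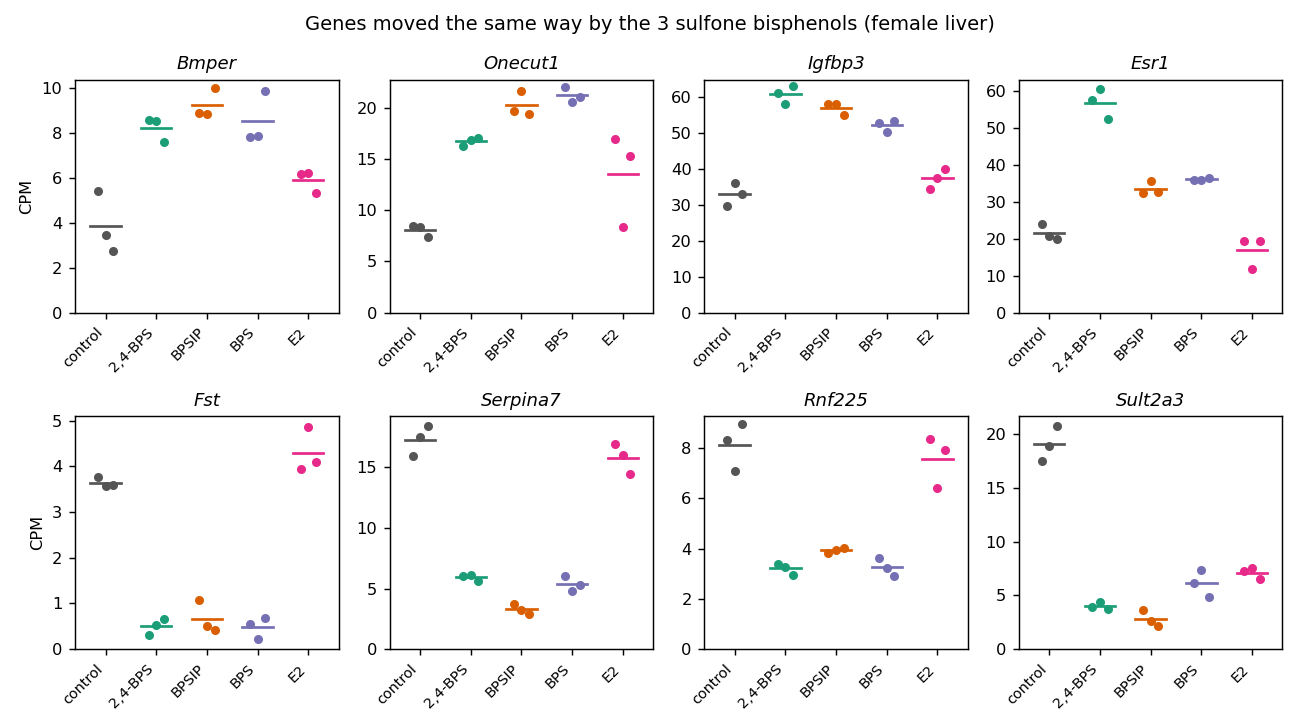
CPM in each female liver (points) with the group mean (line) for 4 genes higher and 4 genes lower under all 3 sulfone bisphenols, with E2 at the right. In the 8 genes the 9 exposed livers do not overlap the 3 controls, and the E2 livers of Fst and Serpina7 do not follow the exposed ones.

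Of 18 genes of the growth hormone and insulin-like growth factor axis, Igfbp3, Igfals, Cish and Onecut1 were shared higher and Igfbp2 was shared lower. The 4 higher genes also passed with the 9 livers as 1 group, and Igfbp2 did not (9-against-3 adjusted p = 0.103). The lower count was 2 without 2,4-BPS replicate 2 or E2 replicate 2. Igfbp3 and Igfals encode proteins that hold insulin-like growth factor in the circulation. Igfbp3 rose from 29.6, 35.9 and 33.1 CPM to 50.3 to 63.1 CPM (median 57.9) over the exposed livers. Its mean effect was 0.78 ± 0.06 (log2), and exposed and control livers did not overlap. E2 livers held 34.5, 37.4 and 40 CPM of it, with 1 of the 3 inside the range of the controls. Cish, which encodes a feedback inhibitor of cytokine and growth hormone signalling, rose by 1.04 ± 0.09 (log2) under the sulfone bisphenols and by 1.63 ± 0.10 under E2. The median mean effect over the 18 genes was 0.11, against -0.01 over all genes tested.

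Esr1, the oestrogen receptor gene, stood at 24.1, 20.7 and 20 CPM in controls and rose to 57.5, 60.6 and 52.3 with 2,4-BPS, 32.5, 35.5 and 32.7 with BPSIP, and 36, 35.9 and 36.3 with BPS. E2 livers held 19.3, 11.7 and 19.4 CPM, all below the controls, with an E2 effect that did not pass (adjusted p = 0.0719). The rise with 2,4-BPS was larger than with BPS (difference 0.66, adjusted p = 0.000572) and than with BPSIP (difference 0.76, adjusted p = 0.000133), while no difference between BPSIP and BPS passed (-0.10, 95% interval -0.37 to 0.17). Sult1e1, the oestrogen sulfotransferase, fell by 1.09 on the log2 scale under the sulfone bisphenols and by 3.19 under E2. Controls held 7.11, 8.15 and 6.28 CPM of Sult1e1, the exposed livers 2.36 to 4.69 CPM (median 3.36) and the E2 livers 0.693, 0.489 and 1.15 CPM. Hsd17b2, which inactivates oestradiol to oestrone, rose by 0.23 ± 0.04 (log2), and its call under BPS was lost without BPS replicate 2 or 3 or control replicate 1 or 2. Of 18 genes of oestrogen receptors and metabolism tested, 2 were shared higher and 1 shared lower, and the median mean effect was 0.01.

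Genes that differ between the sexes in mouse liver moved in part. Of 24 male-biased genes, 4 were shared lower and 2 shared higher, and of 22 female-biased genes 1 was shared higher and 1 lower. Over all tested genes 2.4% were shared higher and 1.8% shared lower. The 2 male-biased genes that rose were Cyp7b1 and Serpina3k, by 0.33 ± 0.06 and 0.54 ± 0.05 (log2). The median mean effect was -0.04 for the male-biased and -0.10 for the female-biased list. Mup7, 1 of the major urinary proteins that carry pheromones, fell from 202, 219 and 241 CPM to 69.3, 73.8 and 77.3 with 2,4-BPS, 25, 31 and 44.1 with BPSIP, and 94.3, 79.7 and 82.6 with BPS, and E2 livers held 24.8, 24.8 and 24.7 CPM. Mup11, which is not in the male-biased list, fell by 1.85 and Cyp4a12a, a fatty acid hydroxylase of that list, by 1.97 on the log2 scale. Both fell further under E2, with effects of -3.36 ± 0.16 and -4.49 ± 0.31. Mup and Cyp4a genes lie in clusters of closely related copies, so reads may have been split among neighbours.

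Sult2a3 and Sult2a1 encode sulfotransferases that act on steroids and bile acids. Sult2a3 fell from 17.5, 18.9 and 20.7 CPM to 3.9, 4.34 and 3.77 with 2,4-BPS, 3.64, 2.64 and 2.19 with BPSIP, and 6.19, 7.37 and 4.85 with BPS. Its mean effect was -2.21 ± 0.11 (log2), the fall was larger with BPSIP than with BPS (difference -1.11, adjusted p = 1.84e-06), and E2 livers held 7.24, 7.54 and 6.54 CPM. Sult2a1, an abundant relative, fell by 0.54 on the log2 scale under the sulfone bisphenols and rose by 0.24 ± 0.05 under E2. Sult2a1 and Sult2a3 are alike in sequence, so their reads may be partly shared. Sult2a1 was the only shared gene of 24 phenol conjugation genes tested, a list in which the mean effect was higher in 8 and lower in 6 and had a median of 0.08.

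Acute phase proteins, which the liver secretes during inflammation, were shared higher in 13 of 35 members tested, and none was shared lower. The median mean effect was 0.42, and 10 of the 13 also passed with the 9 exposed livers as 1 group. The median log2 fold change was 0.68 with 2,4-BPS, 0.15 with BPSIP, 0.26 with BPS and 0.20 with E2. E2 was called higher in 18 of 35 members and lower in 6, against 10.4% and 10.6% of all tested genes. The sulfone mean lay above E2 in 16 members and below it in 12, against 16.9% and 15.9% of all tested genes. Lcn2, the iron-siderophore binding lipocalin, rose from 38.4, 34.4 and 38.3 CPM to 228, 247 and 212 with 2,4-BPS, 175, 177 and 182 with BPSIP, and 76, 79.5 and 83.3 with BPS. The groups did not overlap, and E2 livers held 39.2, 40.4 and 40.3 CPM. Saa1 and Saa2, serum amyloid A genes that are near-identical and may share reads, rose by 1.53 ± 0.06 and 1.67 ± 0.06 (log2), while the E2 effects were -0.40 ± 0.07 and -0.39 ± 0.08. In this list 2,4-BPS lay above BPS in 25 of 35 members and above BPSIP in 29, against 11.8% and 17.9% of all tested genes. On the deposited FPKM scale, which allows levels of different genes to be compared, control livers held 4880 ± 194 (SD, n = 3) FPKM of Serpina3k and 44.6 ± 2.46 FPKM of Lcn2, and Serpina3k rose by 0.54 ± 0.05 (log2).

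**Figure D2:**
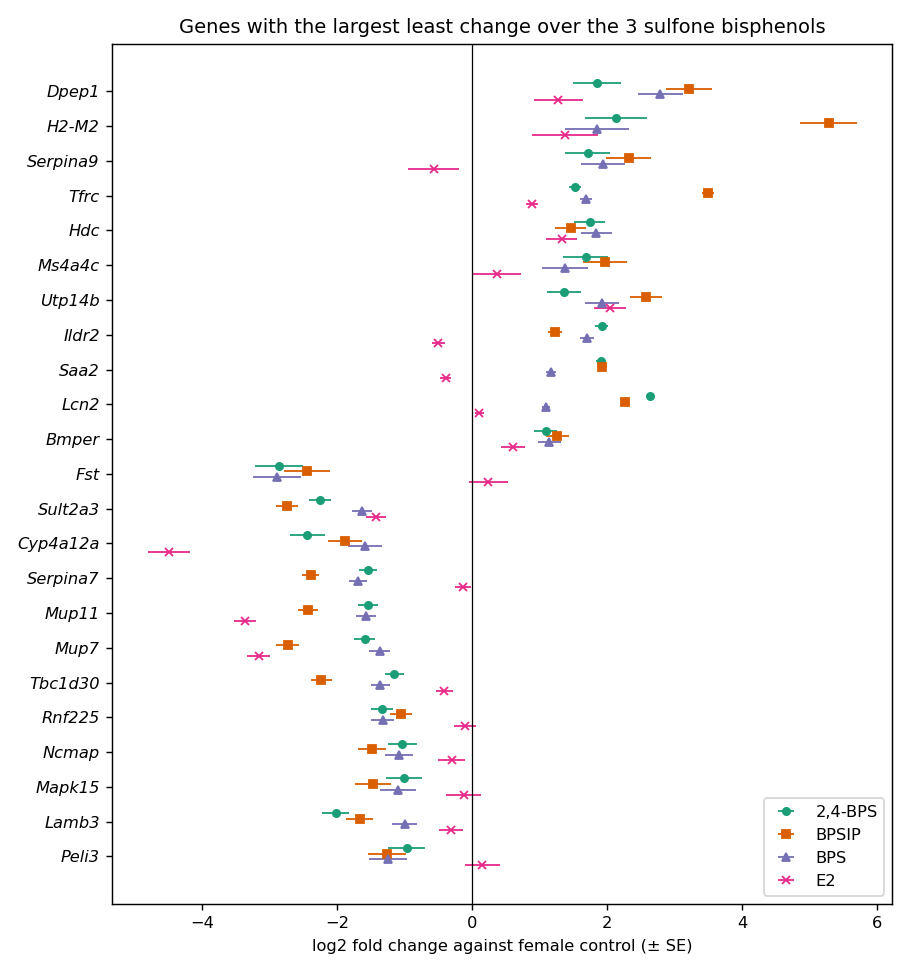
Log2 fold change against female control (points, with bars for the SE) of 11 higher and 12 lower shared genes chosen for the largest least change. For Ildr2 and Saa2, among others, the E2 point lies on the other side of 0 from the sulfone bisphenols, and for Cyp4a12a, Mup11 and Mup7 it lies further from 0.

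Cholesterol synthesis genes formed the group with the largest shared share, 19 of 25 members higher and none lower, but the sizes were uneven. These genes encode the enzymes from acetyl-CoA to cholesterol, most of them targets of the transcription factor SREBP2. The median log2 fold change was 0.42 with 2,4-BPS, 1.70 with BPSIP, 0.47 with BPS and 0.49 with E2. Hmgcs1, the first committed step, stood at 133, 130 and 129 CPM in controls, 213, 208 and 213 with 2,4-BPS, 822, 868 and 854 with BPSIP, and 304, 327 and 321 with BPS. E2 livers held 418, 369 and 411 CPM, between BPS and BPSIP. BPSIP exceeded BPS in 23 of 25 members and exceeded 2,4-BPS in 23, and 2,4-BPS lay below BPS in 14. Over all tested genes these shares were 18.5%, 16.9% and 10.6%. For Sqle, squalene epoxidase, the log2 fold changes were 0.82 ± 0.07, 2.85 ± 0.07 and 1.36 ± 0.07 for 2,4-BPS, BPSIP and BPS, and 1.28 ± 0.07 for E2. With the 9 exposed livers as 1 group 1 of the 19 passed, and the 9-against-3 p was 0.139 for Hmgcs1.

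**Figure D3:**
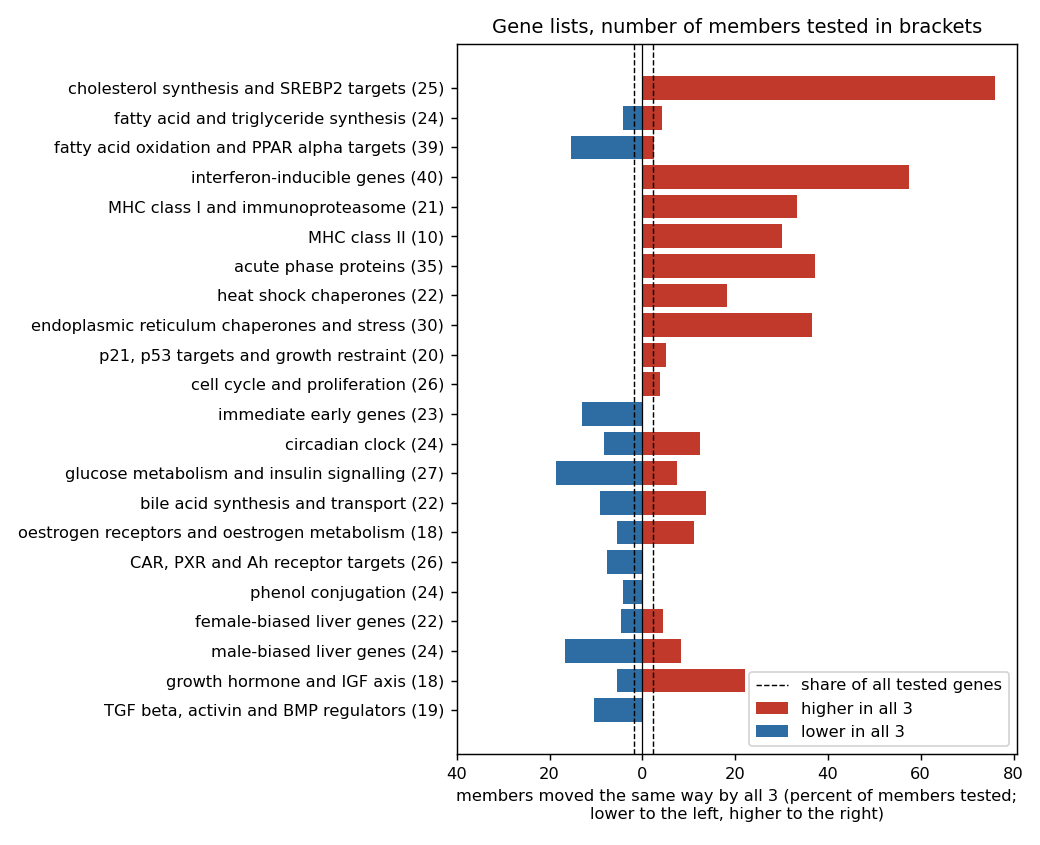
Share of the tested members of 22 gene lists (number tested in brackets) that were higher (right) or lower (left) under all 3 sulfone bisphenols, with the share over all tested genes, 2.4% higher and 1.8% lower, as dashed lines. Cholesterol synthesis and interferon-inducible genes reach furthest to the right.

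Interferon-inducible genes were shared higher in 23 of 40 members, with none shared lower, and 12 of the 23 passed with the 9 livers as 1 group. Igtp, an immunity-related GTPase that acts on vacuoles of intracellular pathogens, rose from 65.1, 66.6 and 66.5 CPM to 171, 181 and 158 with 2,4-BPS, 431, 447 and 456 with BPSIP, and 126, 126 and 126 with BPS. E2 livers, at 220, 252 and 217 CPM, were also above all controls. BPSIP lay above BPS in 27 of the 40 members and below it in 7, against 18.5% and 19.4% of all tested genes. The 9-against-3 p of Igtp was 0.103. The median log2 fold change of the list was 0.63, 1.18 and 0.47 for 2,4-BPS, BPSIP and BPS, and 0.30 for E2.

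Genes of antigen presentation, which load peptides for display to T cells, were shared in part. Of 21 MHC class I and immunoproteasome genes 7 were shared higher, Psmb9, H2-Q4, Tapbp and Psmb8 among them, and Tapbp and Psmb10 passed with the 9 livers as 1 group. The BPS calls of H2-Q4 and Psmb8 were lost without single BPS or control libraries, and H2 genes are alike enough to share reads. Of 10 MHC class II genes 3 were shared higher, with medians of 0.88 for 2,4-BPS, 1.74 for BPSIP, -0.14 for BPS and -0.11 for E2. The shared class II count fell to 0 without BPS replicate 2 and to 1 without BPS replicate 1 or control replicate 3. E2 was called higher in 0 and lower in 4 class II genes, and higher in 6 and lower in 2 of the 21 class I genes. Over all tested genes E2 was called higher in 10.4% and lower in 10.6%. Cd74, the class II invariant chain, was at 541, 531 and 554 CPM with 2,4-BPS, 1110, 1010 and 1030 with BPSIP, 263, 260 and 235 with BPS, and 293, 302 and 286 in controls. It was thus higher with 2,4-BPS and BPSIP and lower with BPS, where the call was lost without BPS replicate 3. The summed level of 16 Kupffer cell and macrophage markers was 1640 to 1700 CPM in controls, 2220 to 2380 with 2,4-BPS, 2660 to 2980 with BPSIP and 1540 to 1640 with BPS. T, NK and B cell markers summed to 23.5 to 31.6 CPM in controls, 29 to 30.5 with 2,4-BPS, 48.7 to 56.7 with BPSIP and 15.7 to 20.4 with BPS. No marker of either list was at 0 in all 12 libraries, and the part of these cells in the interferon and MHC results was not tested.

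Endoplasmic reticulum chaperones and stress genes were shared higher in 11 of 30 members, with none shared lower. Hspa5, the main chaperone of the compartment, rose from 426, 411 and 417 CPM to 593, 625 and 538 with 2,4-BPS, 1200, 1350 and 1370 with BPSIP, and 710, 773 and 814 with BPS, and E2 livers held 644, 663 and 627 CPM. Manf and Hyou1 rose by 1.12 ± 0.05 and 1.10 ± 0.05 (log2, mean of the 3), and Creld2 rose by 0.32 ± 0.08 with 2,4-BPS, 2.21 ± 0.08 with BPSIP and 1.01 ± 0.08 with BPS. Dnajb9, Dnajc3, Sel1l, Edem1 and Xbp1 were the 5 of 11 that passed with the 9 livers as 1 group, and the 9-against-3 p of Hspa5 was 0.0982. Heat shock chaperones of the cytosol were shared higher in 4 of 22 members. Hsph1 of that list rose by 0.31 ± 0.06 with 2,4-BPS, 1.30 ± 0.06 with BPSIP and 1.26 ± 0.06 with BPS, and did not pass with E2 (0.03 ± 0.06, adjusted p = 0.75). Hsp90aa1 rose too, but its call under 2,4-BPS (adjusted p = 0.0375) was lost without 2,4-BPS replicate 1 or 3 or any 1 of the controls.

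The promoters of shared genes were read for 7 motifs, in the 250 bases before each start (RefSeq, build GRCm38.p6), on both strands. A promoter was found for 258 of 333 shared higher, 201 of 250 shared lower and 11055 of 13874 tested genes. The endoplasmic reticulum stress element (CCAAT, any 9 bases, CCACG) was present in 7 of 258 shared higher genes (2.71%), 0 of 201 shared lower genes and 19 of 11055 tested genes (0.172%). Of the 7, Creld2, Dnajc3, Hsp90b1, Hspa5 and Syvn1 belong to the chaperone list, and Acnat2 and Ero1b do not. The 5 list members are shown because the motif is rare among all tested promoters and 5 of the 9 shared chaperone genes with a promoter held it. Over the whole chaperone list, shared or not, 9 of the 26 members with a promoter held it (34.6%). Capitals mark the match, the sequence runs 5′ to 3′ on the strand of the gene, and in Creld2 and Hsp90b1 the match reads as the reverse complement. Hsp90b1 held 2 matches, of which 1 is printed.
Hspa5 (chr2:34772005-34772063, plus strand): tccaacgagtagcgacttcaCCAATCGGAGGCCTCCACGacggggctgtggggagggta
Dnajc3 (chr14:118937807-118937865, plus strand): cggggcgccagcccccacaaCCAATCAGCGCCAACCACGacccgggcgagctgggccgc
Syvn1 (chr19:6046512-6046570, plus strand): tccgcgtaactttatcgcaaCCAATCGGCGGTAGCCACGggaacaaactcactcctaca
Creld2 (chr15:88819500-88819558, plus strand): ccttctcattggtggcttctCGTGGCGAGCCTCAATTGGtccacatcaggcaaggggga
Hsp90b1 (chr10:86705513-86705571, minus strand): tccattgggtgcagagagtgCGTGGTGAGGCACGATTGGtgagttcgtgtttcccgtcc

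The interferon-stimulated response element core (GAAA, any 2 bases, GAAA) was present in 24 of 258 shared higher genes (9.3%), 2.99% of shared lower genes and 3.44% of tested genes. The core was found in 8 of the 16 shared interferon-inducible genes with a promoter, and in 18 of 28 members tested. Igtp, Irgm2, Irgm1 and Gbp2 are shown, with the core in capitals. In Gbp2 it reads as the reverse complement, and of the 2 matches in Irgm1 1 is printed.
Igtp (chr11:58199502-58199551, plus strand): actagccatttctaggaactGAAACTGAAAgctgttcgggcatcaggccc
Irgm2 (chr11:58214893-58214942, plus strand): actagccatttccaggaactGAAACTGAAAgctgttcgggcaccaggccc
Irgm1 (chr11:48871421-48871464, minus strand): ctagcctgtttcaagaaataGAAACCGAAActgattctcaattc
Gbp2 (chr3:142620584-142620633, plus strand): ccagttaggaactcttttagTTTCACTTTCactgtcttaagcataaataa

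The gamma-activated sequence TTCNNNGAA was present in 12.0% of shared higher, 6.97% of shared lower and 7.44% of tested genes. The sterol regulatory element core CACCCCAC was present in 5.04%, 6.97% and 3.44%, and among the 12 shared cholesterol genes with a promoter only Hmgcs1 held it. The E-box CACGTG was present in 10.1%, 8.96% and 9.51%, the heat shock element (GAA, TTC and GAA, each pair spaced by any 2 bases) in 0.775%, 0.498% and 0.443%, and the oestrogen response element (GGTCA, any 3 bases, TGACC) in 0 of the 11055 promoters. None of the printed matches overlapped a match to another of the 7 motifs. A match is a run of letters and not a bound site, and no match says only that these letters are not in this window.

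Genes of fatty acid oxidation, many of them targets of the fat-sensing receptor PPAR alpha, were shared lower in 6 of 39 members and shared higher in 1. Of these 7, 3 passed with the 9 livers as 1 group: Acaa1b and Bdh1, which fell, and Cyp4a32, which rose. Acaa1b, a peroxisomal thiolase, fell from 1140 CPM in each control to 594, 671 and 627 with 2,4-BPS, 590, 569 and 593 with BPSIP, and 867, 842 and 862 with BPS. Vnn1, a pantetheinase, fell by 1.14 on the log2 scale in the mean of the 3. The lower count of this list was 3 without BPS replicate 2 or 3, and Acot1 was 1 of the genes that lost its BPS call in both cases. The 9-against-3 p was 0.0726 for Vnn1 and 0.342 for Acot1. The median log2 fold change was -0.29 with 2,4-BPS, -0.74 with BPSIP and -0.02 with BPS, and 0.15 with E2. Cyp4a14, a further gene of the list, held 236, 233 and 234 CPM in controls, 172, 184 and 163 with 2,4-BPS, 85.6, 100 and 101 with BPSIP, and 999, 1010 and 1060 with BPS. Its direction was thus not shared, and E2 livers held 1800, 1950 and 1840 CPM.

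Of 27 genes of glucose metabolism, 2 were shared higher, Ppp1r3b among them, and 5 lower. The lower count was 2 without control replicate 1 and 3 without control replicate 2 or 3 or BPS replicate 1 or 3. Ppp1r3g and Ppp1r3b both encode subunits that bring protein phosphatase to glycogen, and they moved in opposite directions. Ppp1r3b rose by 0.64 ± 0.05 (log2), while Ppp1r3g fell from 12.2, 16.1 and 15.4 CPM to 6.16, 5.23 and 4.33 with 2,4-BPS, 0.388, 0.291 and 0.194 with BPSIP, and 9.13, 9.59 and 7.85 with BPS. Rgs16, a regulator of G protein signalling, likewise fell furthest with BPSIP: controls held 176, 177 and 174 CPM, and exposed livers 102, 108 and 102, then 6.36, 6.16 and 6.1, then 80.6, 95.7 and 87.7 CPM for 2,4-BPS, BPSIP and BPS. E2 livers held 3.13, 2.33 and 2.5 CPM of Ppp1r3g, and its sulfone mean minus E2 did not pass (-0.15 ± 0.16, adjusted p = 0.534). Ppp1r3b did not pass with E2 (0.15 ± 0.06, adjusted p = 0.0683). On the FPKM scale Rgs16 was at 77.3 ± 1.14 (SD, n = 3) in controls and 17.3 ± 0.851 with E2. The 9-against-3 p was 0.348 for Ppp1r3g and 0.403 for Rgs16.

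Clock genes were shared higher in 3 of 24 members (Arntl, Per2 and Cry1) and lower in 2 (Dbp and Nr1d1). Dbp, an output gene of the clock, fell from 107, 107 and 109 CPM to 49.5 to 76.8 CPM (median 63.5) over the exposed livers and to 11.1, 12.1 and 9.95 CPM with E2. Arntl, which encodes the activator BMAL1, rose from 3.26, 2.97 and 2.62 CPM to 3.85 to 13.8 CPM (median 8.08), and E2 livers held 20.4, 19.9 and 19.7 CPM. With the 9 livers as 1 group, 4 of the 5 shared clock genes passed, and the 9-against-3 p of Arntl was 0.0611. Per2 moved the other way from E2: it rose by 0.67 ± 0.09 (log2) under the sulfone bisphenols and fell by 1.71 on the log2 scale under E2, and its BPS call was lost without control replicate 3. The time of day at which livers were taken is not given in the sources used here, and its part in these values was not tested.

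Bile acid genes were shared higher in 3 of 22 members and lower in 2, and all 5 passed with the 9 livers as 1 group. The lower count was 4 without E2 replicate 2. Cyp7a1, which starts the making of bile acids from cholesterol, rose by 0.26 ± 0.06, 0.43 ± 0.06 and 0.69 ± 0.06 (log2) with 2,4-BPS, BPSIP and BPS, and by 0.39 ± 0.06 with E2. Abcc3, an exporter of bile acid conjugates, fell by 0.40 on the log2 scale under the sulfone bisphenols and rose by 0.25 ± 0.05 under E2. The cell cycle inhibitor p21 (Cdkn1a) was the only shared gene of 20 in its list, at 2.69, 2.94 and 3.85 CPM in controls, 15.4, 13.1 and 12.6 with 2,4-BPS, 5.58, 5.55 and 6.04 with BPSIP, 31.8, 28.3 and 27.5 with BPS, and 43.5, 43.9 and 38.1 with E2. For Cdkn1a BPSIP gave the smallest of the 3 changes. Tfrc, the transferrin receptor that takes iron into cells, was in no list and rose from 11.7, 12.5 and 11.3 CPM to 32.5, 37.4 and 32.9 with 2,4-BPS, 121, 149 and 133 with BPSIP, and 36, 37.2 and 41 with BPS, while E2 livers held 24.8, 18.8 and 22.3 CPM. The 9-against-3 p was 0.0947 for Cdkn1a and 0.0783 for Tfrc.

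The remaining lists held few shared genes. Top2a was the only one of 26 cell cycle genes, with a BPS call that was lost without BPS replicate 1 or 3 or any 1 control, while Egr1, Klf10 and Maff were shared lower of 23 immediate early genes. Fst and Id2 were shared lower of 19 TGF beta, activin and BMP regulators, Cyp2c37 and Cyp1a2 of 26 targets of the xenobiotic receptors, and of 24 fatty acid and triglyceride synthesis genes 1 was shared higher and 1 lower. The BPS calls of Id2 and Cyp1a2 were lost without BPS replicate 1 or control replicate 1, and that of Klf10 without any 1 BPS library or control replicate 1 or 3. Marker lists of the other cell types did not move as 1 under the 3 compounds, apart from the summed adipocyte markers. Adipocyte markers summed to 33.8 to 40.6 CPM in controls and 45.5 to 50.9 with E2. With 2,4-BPS, BPSIP and BPS they summed to 46.8 to 47.7, 53.2 to 58.1 and 45.1 to 51.8 CPM. Of 6 adipocyte markers tested, 3 were higher with 2,4-BPS and 3 with BPS, while 1 was higher and 1 lower with BPSIP. Of 16 Kupffer cell and macrophage markers only Mpeg1 was shared higher: 13 were higher with 2,4-BPS and 14 with BPSIP, while 6 were lower and 1 higher with BPS. Of 12 sinusoidal endothelial markers only Lyve1 was shared higher, and with BPSIP 9 were lower and 1 higher, at a summed 536 to 565 CPM against 689 to 705 in controls. Neutrophil markers were lower in 10 of 11 with BPS (summed 19.6 to 22.2 CPM) and higher in 6 with BPSIP (63.9 to 82 CPM), against 38.5 to 49.7 CPM in controls. Skeletal muscle markers were higher in 7 of 11 with 2,4-BPS, at a summed 9.16 to 47.7 CPM against 3.71 to 7.02 in controls. Exocrine pancreas markers summed to 24 to 26.7 CPM with BPSIP and 29.9 to 31.7 with BPS, against 44.3 to 50.1 in controls. With 2,4-BPS, at 37.9 to 45.4 CPM, they overlapped the controls, and E2 livers held 10.2 to 12.1 CPM. Over all tested genes 2,4-BPS was called higher in 10.9%, BPSIP higher in 19.4% and lower in 19.2%, and BPS higher in 9.32% and lower in 7.5%. Cps1 of the hepatocyte list and Col1a1 of the stellate cell list were shared higher, and no gene of the neutrophil, T, NK and B cell, cholangiocyte, erythroid, skeletal muscle, exocrine pancreas and adipocyte lists was shared. The part of these cells in the other results was not tested. Col1a1 lost its BPS call without BPS replicate 3 or control replicate 1, and its 2,4-BPS call without 2,4-BPS replicate 2 or control replicate 1.

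The 3 pairs of compounds were compared at the same dose and age, with p values adjusted over all genes and the 3 pairs. 2,4-BPS and BPS, which differ in the position of a hydroxyl, differed in 3113 genes (22.4%). BPSIP and BPS, which differ by the isopropyl ether, differed in 5247 genes (37.8%), and 2,4-BPS and BPSIP in 4827 (34.8%). Among shared genes, no pair passed in 87 of 333 higher (26.1%) and 98 of 250 lower genes (39.2%). Over all tested genes the opposite was counted, and at least 1 pair passed in 7156 of 13874 (51.6%). At least 1 pair thus passed in a larger share of the shared genes, higher or lower, than of all tested genes. In shared higher genes BPSIP lay above BPS in 148 and below it in 32, and 2,4-BPS lay above BPS in 63 and below it in 71. In shared lower genes BPSIP lay above BPS in 13 and below it in 112, and 2,4-BPS lay above BPS in 18 and below it in 57. Over all tested genes BPSIP lay above BPS in 18.5% and below it in 19.4%, and 2,4-BPS above BPS in 11.8% and below it in 10.6%. The members were chosen for their direction under each compound, which bears on these counts. Ubd, a ubiquitin-like modifier, stood at 13, 9.46 and 10.7 CPM with BPSIP against 0.86, 0.687 and 0.504 with BPS, 1.23, 0.838 and 1.11 with 2,4-BPS and 0.489, 0.218 and 0.262 in controls. The BPS call of Ubd was lost without BPS replicate 1 or 2 or control replicate 2 or 3. Vldlr, a lipoprotein receptor, was lowest with 2,4-BPS, at 2.54, 3.2 and 2.53 CPM, against 10.3, 9.78 and 10.6 with BPS and 17.6, 16.6 and 17 in controls.

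Of the 207 genes with unlike directions, BPSIP was the compound that moved the other way in 119, BPS in 58 and 2,4-BPS in 30. Igfbp1, an insulin-repressed binding protein, fell from 82.9, 78.6 and 76.3 CPM to 42.7, 46.2 and 47.2 with 2,4-BPS and 7.98, 6.56 and 7.24 with BPSIP, and rose to 196, 201 and 203 with BPS and 187, 200 and 183 with E2. Trim12a was at 0.869, 1.2 and 1.34 CPM in controls, 2.99 to 4.33 CPM with 2,4-BPS and 6.24 to 6.87 CPM with BPSIP, whereas a single count was found over the 3 BPS livers and none over the 3 E2 livers. Gdpd3, a lysophospholipase D, was at 7.24 to 10.3 CPM with 2,4-BPS and 9.44 to 10.8 CPM with BPSIP against 0.136, 0.327 and 0.288 CPM in controls. With BPS it was at 0.111, 0.0312 and 0.063 CPM, and that call was lost without BPS replicate 2 or 3 or control replicate 2 or 3. Cfhr3 and Srp54a were low with 2,4-BPS alone, at 0.0546 to 0.239 and 0.0273 to 0.305 CPM against 1.49 to 1.94 and 1.06 to 1.49 CPM in controls. Their calls under BPS (adjusted p = 0.0402 and 0.0183) were lost when single libraries were left out, for Cfhr3 any 1 of the 9 control, BPSIP and BPS libraries, and for Srp54a BPS replicate 3 or control replicate 2.

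**Figure D4:**
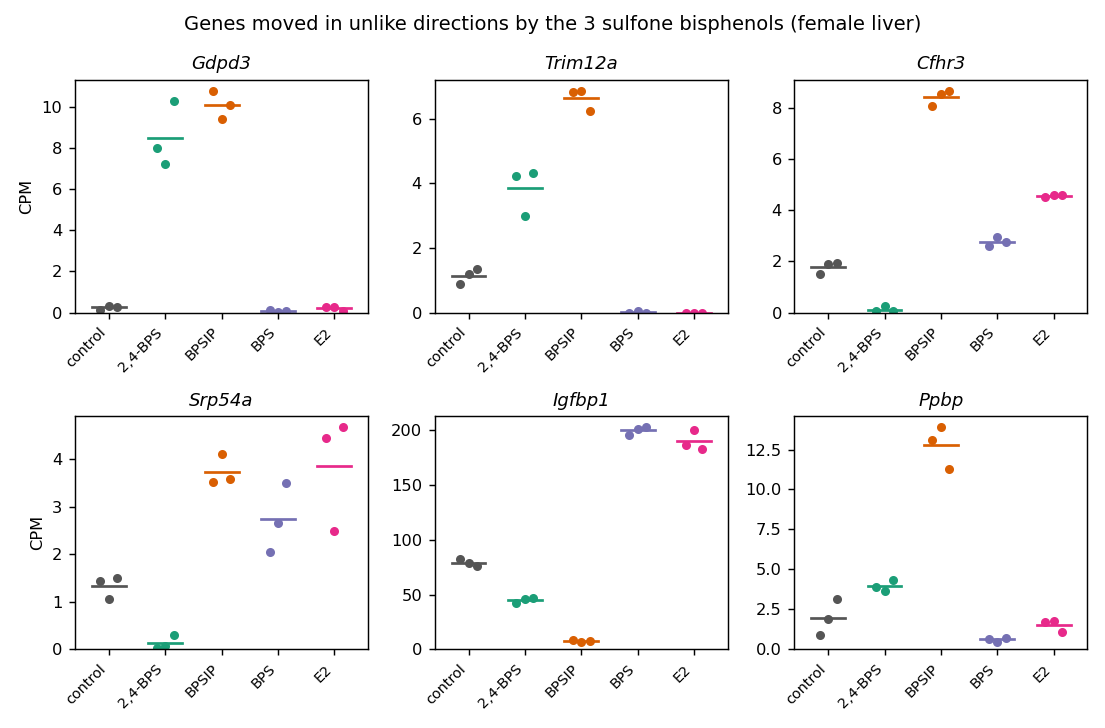
CPM in each female liver (points) with the group mean (line) for the 6 genes called under all 3 sulfone bisphenols in unlike directions with the widest range of effects. Igfbp1 is lowest with BPSIP and highest with BPS, and Cfhr3 and Srp54a are near 0 with 2,4-BPS.

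E2 was compared with the mean of the 3 sulfone bisphenols directly, in a contrast that does not contain the control mean. The controls still entered the estimate of the spread. Over all genes the sulfone mean was higher in 2348 (16.9%) and lower in 2205 (15.9%). It was higher than E2 in 208 of the 333 shared higher genes and lower in 23, and no difference passed in 102. For the 250 shared lower genes it was lower than E2 in 172 and higher in 23, and no difference passed in 55. The genes were chosen for their effect under the sulfone bisphenols, which favours these directions, and the median E2 effect against control was 0.25 (log2) in the higher and -0.18 in the lower genes. Pnpla3, a lipid droplet protein, was at 4.16 to 5.8 CPM with 2,4-BPS, 25.3 to 27.1 with BPSIP and 9.4 to 13.1 with BPS, and at 0.749, 0.374 and 0.824 CPM with E2 against 1.93, 3.41 and 3.27 in controls. Csad, an enzyme of taurine synthesis, fell by 0.96 on the log2 scale under the sulfone bisphenols and rose by 0.75 ± 0.06 under E2. Ly6a, a surface protein induced by interferon, rose by 1.13 ± 0.05 and fell by 1.36 on the log2 scale under E2. Serpina3k and Hmgcs1 are examples of genes for which the direct test did not pass, with differences of 0.03 ± 0.05 and -0.05 ± 0.04 (log2). For Hmgcs1 the single compounds lay on both sides of E2. The effects were 0.69, 2.70 and 1.28 with 2,4-BPS, BPSIP and BPS, and 1.61 with E2.

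**Figure D5:**
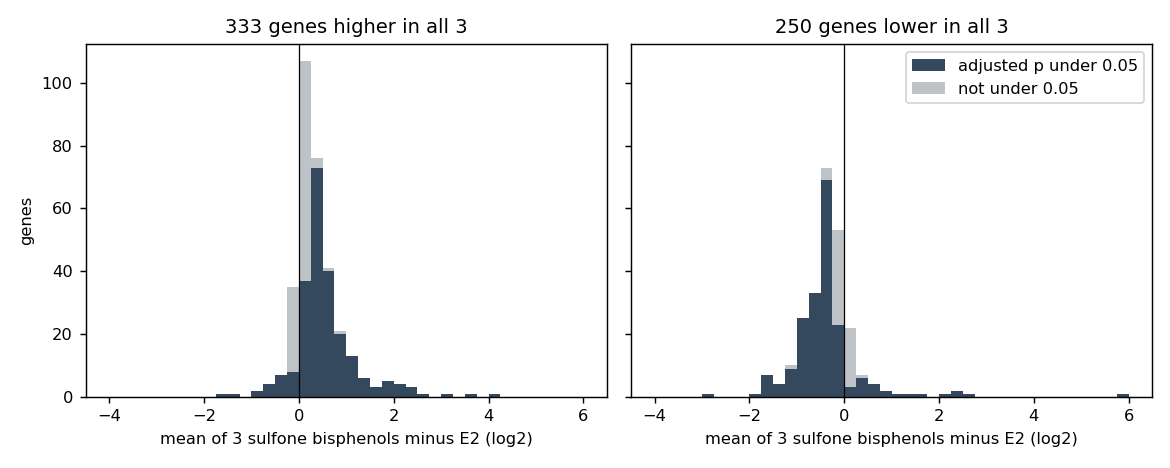
Number of shared genes by the log2 difference of the mean of the 3 sulfone bisphenols minus E2, for genes higher (left) and lower (right) under all 3, with dark bars for an adjusted p under 0.05. In both panels most genes lie on the side of their sulfone effect, 208 of 333 and 172 of 250 past the threshold.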

How the data were processed

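RNA of single livers was sequenced. The authors deposited counts per gene symbol and FPKM for the same genes, and per the submitters' processing notes they used HISAT2, HTSeq, DESeq2 and R 3.2.0. The sources used here name no genome build, annotation or strand setting, so reads of overlapping and antisense genes cannot be told apart. Depth was 33360839 to 37719069 counts per female library.

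Gene counts entered edgeR 4.0.16 (R 4.3.3; filterByExpr, TMM, robust glmQLFit, glmQLFTest) as 1 fit of the 15 female libraries, with 95% intervals from the fit. The mean effect weighs the 3 compounds equally. The procedure was tested on simulated data, where it recovered fewer of the changed genes at low counts than at high counts. The share of recovered genes first asked for was missed and was lowered afterwards, so shared genes of low level may have been missed. DESeq2 1.42.0 and the other alternatives are given in the closing section. FPKM served only to set levels of different genes side by side and to show Rgs16 with E2. Replicates within a group differed by more than counting noise (chi-square over degrees of freedom 5.44 to 22.4), so all were kept. Each library is 1 liver.

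Named genes were the 12 per direction with the largest least change at 1 CPM or more without overlap, the 4 with the smallest p per gene list, a panel, the genes most unlike among compounds, most even, most unlike E2 or most different within a pair, and those nearest the threshold. Some genes that met this rule are not reported here. Promoter genes outside this rule (Acnat2, Ero1b, Syvn1, Dnajc3, Hsp90b1, Gbp2) and list members named only for passing a further fit were picked after their values were seen. Members, the 33 lists and the 7 motifs were chosen with earlier results of these data known.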

Additional observations from a re-analysis of the deposited data

How the results depend on the processing

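With DESeq2, 573 of the 583 shared genes were still shared, with RLE factors 574, without a filter 549, in a fit of all 30 libraries 540 and in the 12 libraries without E2 582, and none reversed. Leaving out 1 library gave 251 to 394 shared higher genes and 168 to 319 shared lower genes; a control library mattered most, with 406 to 421 of 583 still shared. The mean effect was higher in 1368 to 2015 and lower in 1194 to 1881 genes, the sulfone mean minus E2 higher in 1986 to 2318 and lower in 1834 to 2261, and the pairs differed in 2508 to 3572 (2,4-BPS and BPS), 4559 to 5650 (BPSIP and BPS) and 4195 to 5242 genes (2,4-BPS and BPSIP). A minimum log2 fold change of 1 left 23 shared higher and 13 shared lower genes, 159 and 124 for the mean effect, 339 and 166 for the difference from E2, and 346, 969 and 654 for the pairs in the same order. With the 9 exposed libraries as 1 group 203 genes were higher and 180 lower, and the mean effect of Igfbp1 reversed to 0.08 (adjusted p = 0.979). Asking for 2 compounds in place of 3, a weaker demand by construction, gave 632 higher and 476 lower without 2,4-BPS, 604 higher and 372 lower without BPSIP (genes lower in all 3 sulfone bisphenols taken over the other compounds), and 780 higher and 669 lower without BPS. Replicate numbers did not pair the samples: same-number correlations ran from -0.14 to 0.11, and 2 of 15 libraries correlated best with their own number. With the replicate block the counts were 319 shared higher and 236 shared lower, and, for the mean effect of 3 sulfone bisphenols, genes higher and mean effect of 3 sulfone bisphenols, genes lower, 1778 and 1611.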
